A study of Oryza sativa with 8 samples.

Results

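Pathogenesis-related (PR) proteins accumulate in plant tissue after infection or treatment with defence hormones, and rice uses the genes of this group as markers of an active immune response. They are described here with WRKY45, a transcription factor of the salicylate pathway that is required in rice for resistance induced by chemical activators. The 7 loci were chosen by identifier from the 29689 rice loci named on the array. They are PR1a (Os07g0129200, chromosome 7), PR1b (Os01g0382000, chromosome 1), PR5 (Os12g0628600, chromosome 12), the PR10 genes RSOsPR10 (Os12g0555000, chromosome 12), PBZ1 (Os12g0555500, chromosome 12) and JIOsPR10 (Os03g0300400, chromosome 3), and WRKY45 (Os05g0322900, chromosome 5). The array carries 14 probes for them out of 42477. The array files give no gene names, so the symbols rest on general knowledge of these loci, and only PBZ1 could be checked against a RefSeq gene table. Beyond such checks of symbols, genome positions were not used here.

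The samples were whole roots of rice seedlings, cultivar Koshihikari, grown for 10 days in ammonium chloride. The supply was 0.005 mM in 4 samples and 1 mM in the other 4, which the labels call biological replicates. Both groups are of the same cultivar and age and received ammonium as the only stated treatment. Whether a sample holds roots of 1 or of several plants is not given in the sources used here.

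PR1 proteins are small secreted proteins of the CAP superfamily, PR5 proteins are thaumatin-like proteins, several of which act against fungi, and PR10 proteins are small intracellular proteins with a ligand-binding fold. PR1a and PR1b are the standard markers of the salicylate and jasmonate responses in rice leaves. PBZ1 was found as a gene induced by probenazole, a chemical that protects rice from blast. RSOsPR10 was described as a root-specific gene induced by stress and by jasmonate, and JIOsPR10 as a jasmonate-inducible gene. WRKY45 binds W-box sequences and acts in the salicylate pathway beside NPR1.

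At 1 mM ammonium the transcripts of PR1a and WRKY45 were higher than at 0.005 mM by 11.3-fold and 3.82-fold, that of PBZ1 by 2.05-fold and that of JIOsPR10 by 1.26-fold. PR5 was detected at 1 mM alone. PR1b and RSOsPR10 did not pass the test. Of the 7 loci, 5 (71.4%) were called higher and 0 lower, at an adjusted p under 0.05 in limma fitted to all 24981 units, where a unit is a locus or a probe without one. Of all units tested, 76.1% were called in either direction, 32.2% higher and 43.8% lower. At least 2-fold increases were called for 4 of the 7 loci (57.1%), against 9.85% of all units. PBZ1 fell below 2-fold in 9 of 19 alternative settings, which leaves 3 of 7. The median log2 change was 1.04 over the 7 loci and -0.087 over all units. As the 7 loci were chosen with earlier results of these data known, these shares and medians are descriptions. All 7 passed the filter on dim probes, PR5 only through the 1 mM arrays, so its difference was a condition of being tested and its call is a description. Of the other 6, 4 were called higher and 3 of these by at least 2-fold. All 0.005 mM arrays sat on one slide and all 1 mM arrays on another, and the effects of slide and of supply cannot be told apart.

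Between 81.37% and 85.15% of the non-control spots of an array were well above background, and 0 were saturated. Levels below are log2 signals relative to the 75th percentile of the same array, changes are 1 mM minus 0.005 mM on the log2 scale with their standard error (± SE, n = 4 per group), and adjusted p-values come from limma. Levels of different probes were not read as amounts of transcript relative to each other. They were compared to pick the probe that stands for a locus and to judge detection near background. Signals of tissue markers were summed, and brighter probes weigh more in those sums. In whole roots, a lower signal from fewer cells of a type cannot be told apart from less RNA per cell.

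**Figure D1:**
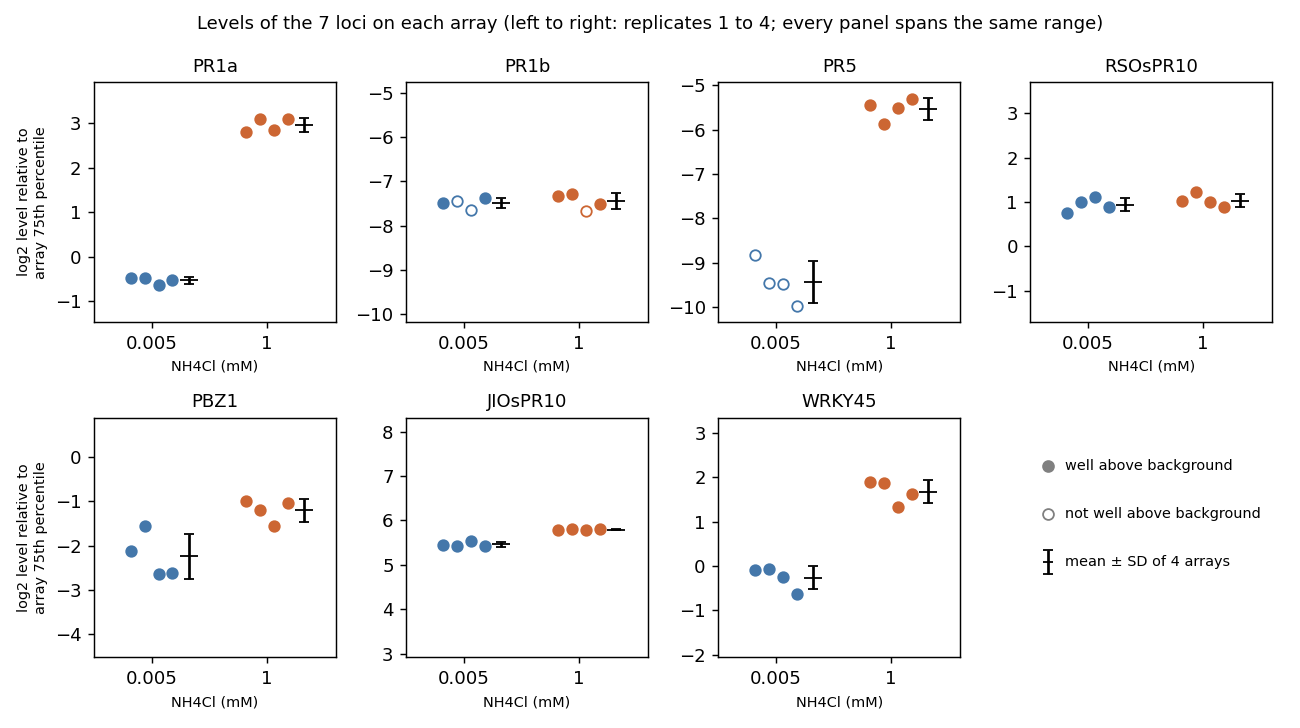
Level of each locus on each array, as log2 signal minus that of the 75th percentile, at 0.005 mM (blue) and 1 mM (orange) ammonium chloride. Filled points were well above background, open points were not, and bars give the mean ± SD of 4 arrays. PR1a, PR5, WRKY45 and JIOsPR10 separate the groups on all arrays, as 71.6% of all units do in either direction. JIOsPR10 does so only after scaling between arrays. PR1b and RSOsPR10 do not separate the groups, and the PBZ1 groups touch at -1.57.

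Among the 7 loci, PR1a rose the most of those detected in both groups. On the 0.005 mM arrays its level was -0.48, -0.48, -0.65 and -0.52 in replicates 1 to 4, and on the 1 mM arrays it was 2.81, 3.10, 2.85 and 3.10. The groups lay far apart compared with the spread within each. The means were -0.53 ± 0.08 (SD, n = 4) and 2.96 ± 0.16, and the change was 3.50 ± 0.08, an 11.3-fold increase (adjusted p = 2e-08). Among all units, 1.22% had an increase at least as large. The other PR1a probe, AF251277, rose by 3.40 ± 0.10. Both PR1a probes carry the same expressed-sequence identifier in the array files and may read the same part of the transcript.

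PR1b was at the limit of detection. Its level was -7.48, -7.44, -7.65 and -7.37 at 0.005 mM and -7.32, -7.28, -7.66 and -7.52 at 1 mM. The single PR1b probe cleared background on 2 of the 4 low-ammonium arrays and on 3 of the 4 others, and the groups overlapped. The change of 0.04 ± 0.10 (adjusted p = 0.737) had a 95% interval from -0.19 to 0.26, which does not reach the change of PR1a. That interval holds for this scaling alone, and with spike-in scaling the change was -0.34 and called lower. At signals this low, it describes the measured signal and does not bound the difference in PR1b transcript.

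PR5 was detected at 1 mM alone. Its probe cleared background on 0 of the 4 low-ammonium arrays, where the measured levels were -8.83, -9.46, -9.48 and -9.97, and on all 4 arrays at 1 mM, with levels of -5.45, -5.88, -5.51 and -5.30. The measured means were -9.43 ± 0.47 and -5.54 ± 0.25, and the fitted change was 3.90 ± 0.23 (adjusted p = 1.61e-06). Set against the lowest signal that was well above background on each 0.005 mM array, the transcript was at least 8.18-fold higher at 1 mM. That bound holds for this background correction and floor alone. Brighter signals could also fail to clear background, as PR1b did at -7.44 and -7.65, and the change was 1.08 with normexp background correction and quantile normalization. The size of the PR5 increase is therefore not settled.

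The 3 PR10 genes gave different fitted changes, and differences between them were not tested. RSOsPR10 was at 0.76, 0.99, 1.12 and 0.89 at 0.005 mM and at 1.02, 1.23, 0.99 and 0.88 at 1 mM. Its groups overlapped, and the change of 0.09 ± 0.10 (adjusted p = 0.402) had a 95% interval from -0.13 to 0.31. The other RSOsPR10 probe, AK061606, gave -0.04 ± 0.09. RSOsPR10 was thus well detected in these roots on all arrays, with no change that passed the test.

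PBZ1 rose by 1.04 ± 0.25, a 2.05-fold increase (adjusted p = 0.00505). The level was -2.12, -1.57, -2.64 and -2.62 at 0.005 mM and -1.0, -1.20, -1.57 and -1.04 at 1 mM. Replicate 2 at 0.005 mM and replicate 3 at 1 mM met at -1.57, so the groups touched. The SD at 0.005 mM, 0.51, was the largest of any of the 7 loci, and the exact permutation test of PBZ1 alone gave p = 0.0571, two-sided. Its other probe, D38170, rose by 0.85 ± 0.23 (adjusted p = 0.00819, over 35953 probes).

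JIOsPR10 showed a small difference with little spread. Its level was 5.45, 5.42, 5.54 and 5.43 at 0.005 mM and 5.78, 5.81, 5.78 and 5.80 at 1 mM, so the groups did not overlap. The change was 0.33 ± 0.04 (adjusted p = 7.58e-05), and the other probe, AK121376, rose by 0.16 ± 0.06 (adjusted p = 0.0337). This call depended on the scaling between arrays. JIOsPR10 was at 0.06 without scaling, 0.02 with normexp and quantile normalization, and -0.05 with quantile normalization or with spike-in scaling, none of which passed the threshold.

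WRKY45, the regulator in the group, rose by 1.94 ± 0.16, a 3.82-fold increase (adjusted p = 1.04e-05). Its level was -0.10, -0.07, -0.25 and -0.62 at 0.005 mM and 1.90, 1.86, 1.32 and 1.62 at 1 mM. The groups did not overlap, and 3.83% of all units had an increase at least as large. Replicate 3 at 1 mM was the lowest of its group for WRKY45, PBZ1 and PR1b.

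WRKY45 is read by 4 probes, of which 3 gave nearly the same change. Probes AK103959, AK105939 and AK066255 rose by 1.94 ± 0.16, 2.01 ± 0.14 and 1.90 ± 0.13. The probe AK063697, which the array files assign to the transcript Os05t0322900-03, rose by 0.93 ± 0.16 (adjusted p = 0.000723). Its change was smaller by 1.00 than that of AK103959, which stands for the locus and is assigned to the transcript Os05t0322900-01. An exact permutation test of this gap over the 8 arrays gave p = 0.0286, two-sided, the smallest the design allows, and an adjusted p = 0.0667 over the 7 probe pairs compared within loci. The PR1a and JIOsPR10 probe pairs reached the same p and adjusted p with gaps of 0.10 and 0.17. With 4 arrays a side, no adjusted p over 7 pairs can fall under 0.05 unless several pairs reach the smallest p together, so this test says little about the gap.

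**Figure D2:**
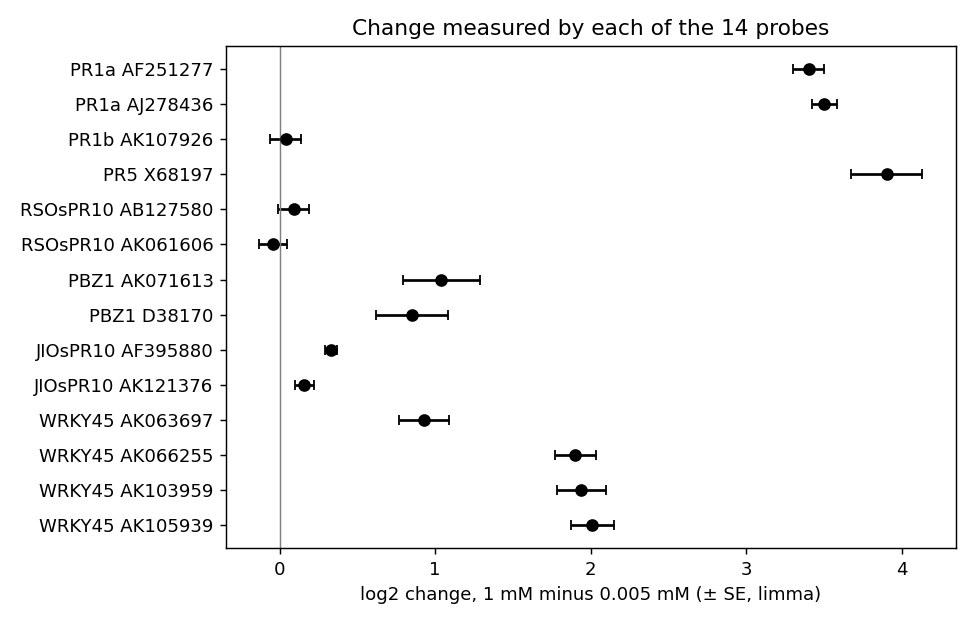
Log2 change from 0.005 mM to 1 mM ± SE (limma, all 35953 probes fitted) for each of the 14 probes. Probes of 1 locus lie close together except for the WRKY45 probe AK063697, at 0.93 against 1.90 to 2.01 for the others.

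The groups did not overlap for 4 of the 7 loci (57.1%), namely PR1a, PR5, JIOsPR10 and WRKY45, all higher at 1 mM. PR5 passed the filter only through the 1 mM arrays, so its separation was a condition of being tested. Before scaling between arrays, the JIOsPR10 signals of the groups overlapped. Of all units, 71.6% did not overlap in either direction and 30.1% were higher at 1 mM without overlap. Scaling by spike-in controls moved the median of all units by -0.38, and leaving arrays unscaled moved it by -0.27. Both scalings shift all units of an array alike, so changes relative to the median of all units are the same by construction, at 3.59 for PR1a, 2.02 for WRKY45, 1.12 for PBZ1, 0.42 for JIOsPR10, 0.18 for RSOsPR10 and 0.12 for PR1b. In absolute terms, spike-in scaling gave -0.34 for PR1b and -0.29 for RSOsPR10, both then called lower.

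**Figure D3:**
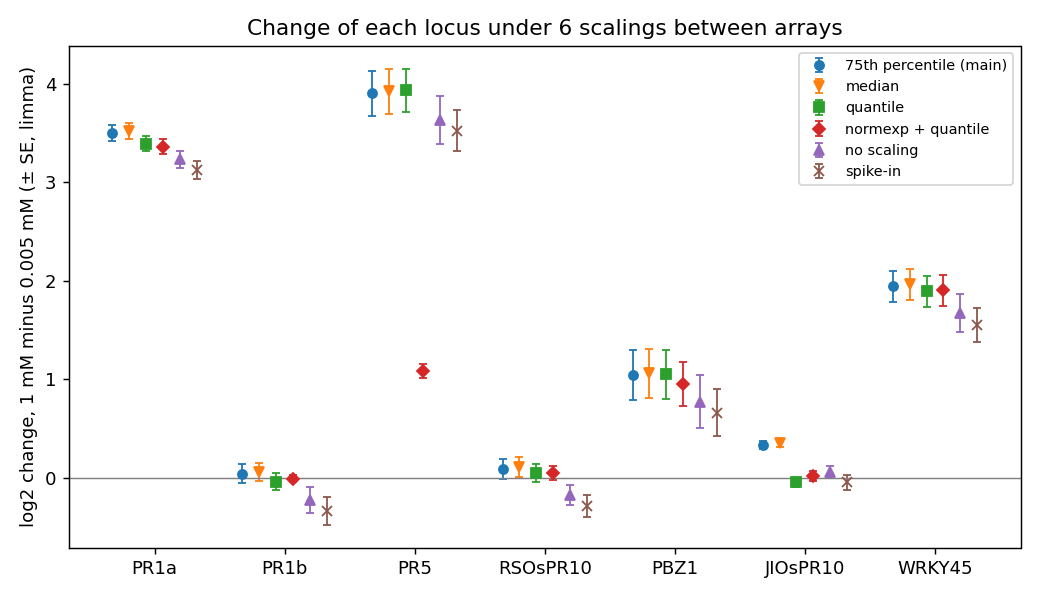
Log2 change from 0.005 mM to 1 mM ± SE (limma) of each locus under 6 ways of scaling the arrays. PR1a, WRKY45 and PBZ1 stay above 0 under each, JIOsPR10 falls to 0.06 or below under 4 of them, and PR5 drops to 1.08 with normexp and quantile normalization.

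The authors' deposited table of features past their own test lists 10 of the 14 probes. The share of all probes that it lists was not computed. The fit made here called 76.1% of all units, but it counts units rather than probes and is not the authors' test. The count of 10 thus has no matching share beside it and is a description. In the authors' deposited table the log2 ratio of the nitrogen-sufficient over the nitrogen-deficient average, read here as 1 mM over 0.005 mM, was 3.37 and 3.27 for the PR1a probes, 3.72 for PR5, 0.85 and 0.66 for PBZ1, and 0.19 for the JIOsPR10 probe AF395880. The WRKY45 probes stood at 1.87, 1.80, 1.77 and 0.80 in the authors' deposited table, with AK063697 again the lowest. The 4 probes that the authors' deposited table does not list were those of PR1b and RSOsPR10 and the JIOsPR10 probe AK121376.

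Other genes of the same response were counted from lists written from general knowledge, with a name printed only where the RefSeq table places its symbol at the matching point of the chromosome. Because the lists were chosen with earlier results of these data known, their shares describe the listed loci and test nothing. Of 11 loci listed for other PR enzymes, 10 rose (90.9%, against 32.2% of all units), 0 fell and 1 did not pass. Their median change was 1.76. The 4 with a supported name were all chitinases, which cut the chitin of fungal cell walls. CHT2 (Os05g0399300) rose by 4.30 ± 0.11, from -0.45 ± 0.13 to 3.85 ± 0.20. CHT3 (Os06g0726100), CHT1 (Os06g0726200) and CHT8 (Os10g0542900) rose by 2.69 ± 0.10, 1.55 ± 0.06 and 1.19 ± 0.11.

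Of 22 loci listed as defence regulators, 9 rose (40.9%), 10 fell (45.5%) and 3 did not pass, with a median of -0.19, shares near the 32.2% and 43.8% of all units. One of the 9, Os01g0584900, was at background on the 0.005 mM arrays and passed the filter only through the 1 mM group, which leaves 8 of 21. Of these, 7 had a supported name, of which 4 rose, 2 fell and 1 did not pass. WRKY62 (Os09g0417800) and WRKY76 (Os09g0417600), adjacent genes whose products have been described as repressors of rice defence, rose by 4.29 ± 0.10 and 3.20 ± 0.16. NPR3 (Os03g0667100) and NPR1 (Os01g0194300), which belong to the family of salicylate receptors and coactivators, rose by 1.49 ± 0.07 and 0.75 ± 0.05. The members that fell were WRKY51 (Os04g0287400) at -0.58 ± 0.08 and WRKY71 (Os02g0181300) at -0.45 ± 0.10. WRKY24 (Os01g0826400) stood at -0.24 ± 0.11 and did not pass (adjusted p = 0.0818), though it was called lower with spike-in scaling (-0.62), with arrays left unscaled (-0.51) and without 0.005 mM replicate 4 (-0.35). WRKY51, WRKY71, WRKY24 and Os01g0584900, and CERK1, RBOHB and Os02g0662000 below, were named after their values had been seen.

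Of 6 loci listed for immune perception and its kinases, 3 rose, 1 fell and 2 did not pass, with a median of 0.20. Among all units, 32.2% were called higher and 43.8% lower, and 6 loci are too few to judge a difference from these shares. CEBIP (Os03g0133400), the chitin-binding receptor protein, rose by 1.86 ± 0.06, whereas the co-receptor kinase gene CERK1 (Os08g0538300) stood at 0.00 ± 0.04 (adjusted p = 0.911). The small GTPase gene RAC1 (Os01g0229400) rose by 0.85 ± 0.08, and the kinase gene MPK5 (Os03g0285800) changed by -0.34 ± 0.09. RBOHB (Os01g0360200), which encodes an NADPH oxidase, stood at 0.18 ± 0.09 and did not pass (adjusted p = 0.0836), but was called higher with the mean of the kept probes (0.18) and without 0.005 mM replicate 1 or 1 mM replicate 2 (both 0.23). CERK1 was called lower without scaling (-0.27) and with spike-in scaling (-0.39). Over the 3 lists together, 22 of 39 loci rose, 11 fell and 6 did not pass, with a median of 0.45 against -0.087 for all units. Of the 39, 56.4% rose and 28.2% fell, against 32.2% and 43.8% of all units. Without Os01g0584900, which passed the filter only through the 1 mM group, 21 of 38 rose. Of the 22 that rose, 10 came from the 11 other PR enzymes. Differences between the lists were not tested.

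**Figure D4:**
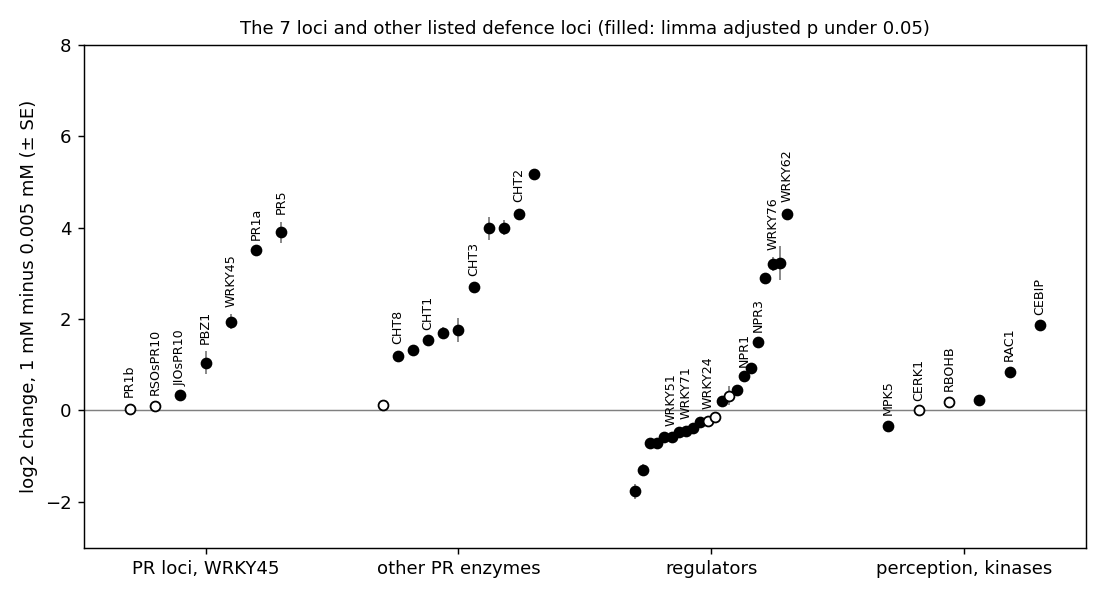
Log2 change from 0.005 mM to 1 mM ± SE of the 7 loci and of the loci in 3 lists of other defence genes. Each point is 1 locus, filled where the limma adjusted p was under 0.05, and named where a name is used in the text or supported by the gene table. Of the other PR enzymes 10 of 11 are filled and above 0, and the regulators spread to both sides, as all units do.

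Most loci beside PR1a in the order of identifiers on chromosome 7 also rose. Of 20 loci with identifiers from Os07g0125000 to Os07g0129900 other than PR1a, 19 were measured, of which 16 rose (84.2%, against 32.2% of all units), 1 fell and 2 did not pass, with a median change of 3.90. They are not independent measurements, because 10 of the 19 are read by probes designed on 3 sequence accessions, each of which names several loci. The 19 loci rest on 12 accessions, of which 9 were higher, and no share of all units counted by accession was computed. Os07g0129300, next to PR1a by identifier, was at -9.83, -9.58, -5.37 and -8.02 at 0.005 mM, where 1 of the 4 signals cleared background, and at 1.69, 1.49, 1.53 and 1.52 at 1 mM. Its fitted change of 9.76 ± 0.89 rests on signals at background and gives direction rather than size. Os07g0127600 rose by 5.32 ± 0.14, from -5.32 ± 0.28 to -0.01 ± 0.16. Os07g0127100 and Os07g0126500, which share an accession, rose by 5.04 ± 0.10 and 4.98 ± 0.13. The files give these loci no name or function.

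Around RSOsPR10 and PBZ1 on chromosome 12, 16 other loci from Os12g0554000 to Os12g0556500 were all measured. Of these, 6 rose (37.5%), 6 fell (37.5%) and 4 did not pass, with a median of -0.01, shares near the 32.2% and 43.8% of all units. Between RSOsPR10 and PBZ1 by identifier, Os12g0555100 fell by 2.20 ± 0.11 on the log2 scale, from 4.55 ± 0.04 to 2.35 ± 0.23, and Os12g0555300 changed by -0.99 ± 0.09. Beyond PBZ1, Os12g0556200 and Os12g0556300 rose by 2.05 ± 0.17 and 1.55 ± 0.09.

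**Figure D5:**
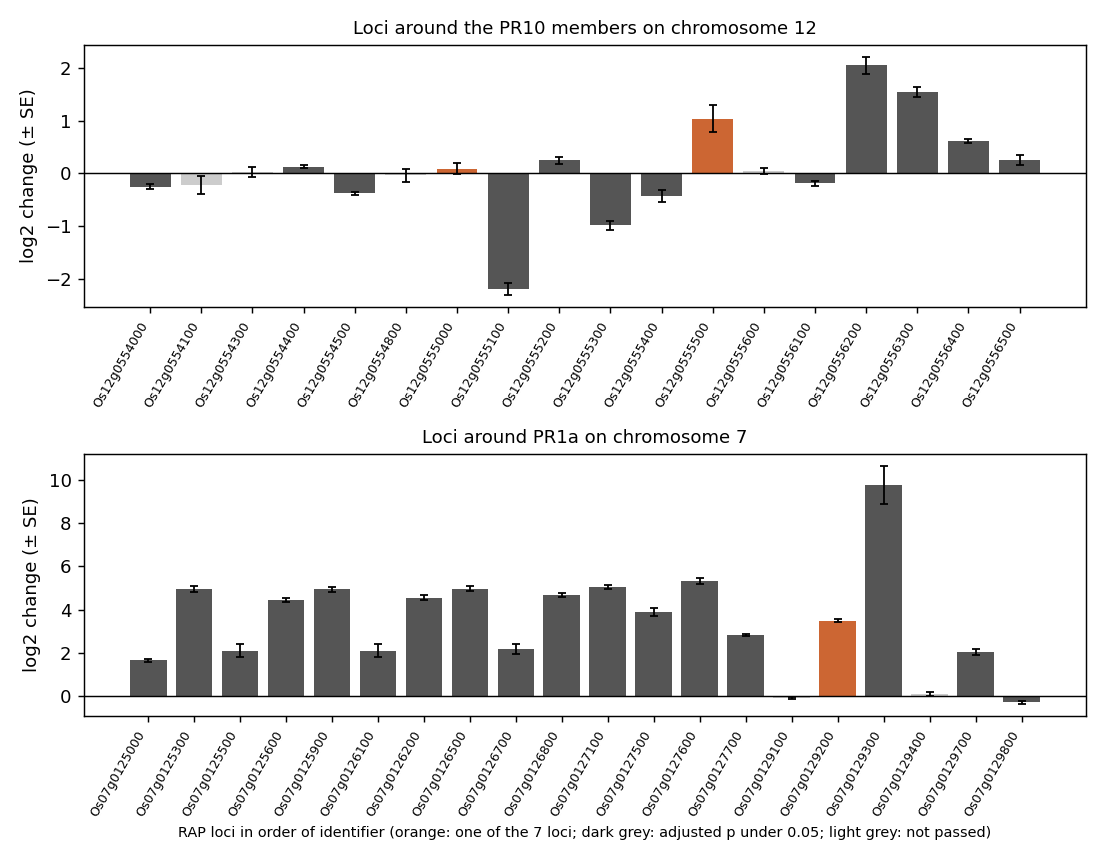
Log2 change from 0.005 mM to 1 mM ± SE (limma) of measured loci in the order of their identifiers, around the PR10 genes of chromosome 12 (top) and around PR1a on chromosome 7 (bottom). RSOsPR10 and PBZ1 (top) and PR1a (bottom) are orange, and RSOsPR10 did not pass the test. Bars around PR1a are mostly above 0, and those around the PR10 genes point both ways.

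For each of the 7 loci, the locus with the most similar profile over the 8 arrays was found as the smallest root mean squared difference between profiles centred on their own means. For PR1a it was Os01g0946500, at 0.0794 log2 units and with a change of 3.42 ± 0.05. For WRKY45 it was Os07g0416900, at 0.148 and a change of 1.97 ± 0.14. PBZ1 was most like Os01g0776500, at 0.121, and PR5 most like Os07g0484200, at 0.243, with 0 loci within 0.2. At 0.005 mM the PR5 profile holds signals at background. JIOsPR10 was most like Os04g0665400, at 0.0226. A distance within 0.2 was found for 19 loci with PR1a, 30 with WRKY45 and 3 with PBZ1, but for 6567 with JIOsPR10, 6255 with RSOsPR10 and 6952 with PR1b, whose profiles are nearly flat. For RSOsPR10 the closest was Os07g0252300, at 0.0652, and for PR1b Os08g0160300, at 0.0662. The sources used here name none of these nearest loci.

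Markers of the labelled tissue were present, with differences between the groups. The silicon transporter genes LSI1 (Os02g0745100) and LSI2 (Os03g0107300), expressed in roots, changed by -0.77 ± 0.08 and -0.99 ± 0.07, while another listed root locus, Os02g0662000, rose by 0.94 ± 0.07. Of green-tissue markers, 3 of 3 with a supported name rose at 1 mM, namely RBCS (Os12g0274700), CAB2R (Os01g0600900) and CAB1R (Os09g0346500), by 1.77 ± 0.10, 1.92 ± 0.07 and 0.62 ± 0.17. Their summed signal, in multiples of the array's 75th percentile, ranged from 50.8 to 64.3 at 0.005 mM and from 138 to 171 at 1 mM. CAB1R did not pass with quantile normalization (0.22), spike-in scaling (0.24) or normexp (0.29). Among all units, 32.2% were called higher and 43.8% lower, and the markers are too few to judge a difference from these shares. The summed signal of LSI1 and LSI2 ranged from 68.9 to 74.9 and from 37.9 to 46.3, and with Os02g0662000 included from 110 to 119 and from 122 to 127. None of the 5 markers with a supported name was at background. The part of these shifts in the results was not tested.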

How the data were processed

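Gene expression was measured on 8 one-colour arrays (Cy3, per the labels). Per the file headers, Agilent Feature Extraction 10.10.1.1 wrote the deposited values, which are linear intensity per spot after background subtraction. The authors' deposited table gives the log2 ratio of each listed feature with its p-value and q-value, from a test not given in the sources used here. Its 8 columns of array signals bear names other than the sample titles and were left aside.

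From the processed signal, log2 values minus the array's 75th percentile over non-control spots were taken. Outlier-flagged spots were dropped. Probes that cleared background on 4 or more of the 8 arrays were kept, and the kept probe of highest mean signal stood for a locus, which left 24981 units, 24777 of them loci. The comparison used limma 3.58.1 under R 4.3.3 (two-sided, Benjamini-Hochberg over all units, threshold 0.05), tested on simulated data first. The number of arrays limits the precision. The planned normexp alternative used the median spot signal, since the files hold no mean signal.

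The 7 loci, the lists and the naming rule were chosen with earlier results of these data known. The naming rule took all 7 loci, up to 4 called members with a supported name from each list, the closest profile for each locus and up to 4 called neighbours by size of change. A symbol counted as supported where the RefSeq table (assembly ASM3414082v1) placed it on the chromosome in the locus identifier, within 3% of its gene order, which cannot tell neighbouring genes apart. Of the listed pairs, 3 were contradicted and left out. Sequences, promoters and motifs were not analysed here. Same-numbered samples correlated in their deviations at 0.32, -0.01, 0.10 and 0.08, and replicate numbers were not treated as pairs. Each number also marks the same position on both slides.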

Additional observations from a re-analysis of the deposited data

Results flagged for a closer look

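Among 86 groups of 4 arrays checked for the named loci, 3 held 1 array far from the others, and chance flags about 1 in 20 groups, so 3 is no more than chance gives. Replicate 2 at 1 mM had a RAC1 level of -2.77, below the -2.49 to -2.47 of the others. CHT2 at 1 mM was 3.55 in replicate 3 against 3.92 to 3.98. Os04g0665400, the locus closest in profile to JIOsPR10, was -1.65 in replicate 3 at 0.005 mM against -1.79 to -1.77. None of the 7 PR and WRKY45 loci had such an array.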

How the results depend on the processing

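PR1a and WRKY45 kept their direction and call under every alternative, with log2 changes of 3.12 to 3.55 and 1.55 to 2.05. PR5 ranged from 1.08 to 4.10 where it was kept, and it was also called higher without the filter on dim probes (3.9). Its 0.005 mM signals are at background, so these values give no settled size. Asking for all 8 arrays above background dropped PR5 and PR1b. PBZ1 kept its call (0.66 to 1.26) except in the exact permutation test, with 1.04 at p = 0.0571. JIOsPR10 was no longer called without scaling (0.06) or with normexp and quantile normalization (0.02), and turned to -0.05 with quantile normalization and with spike-in scaling. PR1b and RSOsPR10 were called lower with spike-in scaling, at -0.34 and -0.29, which made 2 of the 7 loci lower in place of 0. Units called higher numbered 8050, against 4884 without scaling and 4022 with spike-in scaling. Higher calls were 42.4% of calls, 24.9% without scaling and 20.0% with spike-ins. Spike-in scaling shifts all units alike by -0.38 at the median, so the loci chosen for profiles like PR1b, RSOsPR10 and JIOsPR10 had to turn with them (Os08g0160300 -0.36, Os07g0252300 -0.26, Os04g0665400 -0.01). Why the other calls changed was not tested. Of 36 other named loci, 29 kept direction and call under all alternatives. Most were named because they were called or because their profile was like that of 1 of the 7 loci. The count therefore describes chosen loci, and no share of all units stands beside it.

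Leaving out 1 array gave 5 loci higher and 0 lower each time, and 7660 to 7979 units higher and 10496 to 10992 lower. PBZ1 then ranged from 0.90 to 1.26. With the replicate block the same 5 of the 7 loci were higher, PR1a at 3.50, WRKY45 at 1.94 and PBZ1 at 1.04, and 8111 units were higher and 11018 lower. A fit with slide as a block was not run, because slide and group coincide. PR1b and PR5 at 0.005 mM are limited by signal near background.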
